A study of Mus musculus with 30 samples.

Results

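Masp1, Ntn4 and Snorc are 3 of the 11137 genes in a table of RNA levels in sorted mouse mammary epithelial cells. They were chosen by their measured levels, because all 3 were raised in luminal cells of parous mice that had lost Rank, the receptor for Rankl, in the luminal lineage. The question followed here is how the same genes behaved in the other groups, above all in virgin luminal cells and in basal cells, which entered neither side of that choice. The series held 30 libraries from 17 female mice of mixed background, and 13 of these mice gave both a luminal and a basal library. All mice carried rtTA under the Krt8 promoter (K8rtTA), TetO-Cre and the mTmG reporter, which turns from red to green fluorescence where Cre has acted, and all received doxycycline at 1 mg/ml in the drinking water from 3 to 8 weeks of age by the labels, while the methods put the start later. K8iΔRank mice also carried 2 floxed Rank alleles (RANK fl/fl), which the K8imTmG control mice lacked. The Krt8 promoter is active in luminal cells, so the basal cells of K8iΔRank mice kept Rank in a gland whose luminal cells had been targeted. Luminal cells were collected as green CD24-high CD49f-low cells and basal cells as CD24-low CD49f-high cells, after leukocytes and endothelial cells had been gated out. Virgin mice were age-matched to parous mice, which had gone through pregnancy and regression of the gland. Parous K8iΔRank dams did not sustain their pups, whereas control dams nursed until the litter was removed, so the parous groups differed in nursing as well as in genotype. Each library came from a single mouse. The groups were luminal virgin K8imTmG (n = 3) and K8iΔRank (n = 3), luminal parous K8imTmG (n = 5) and K8iΔRank (n = 4), basal virgin K8imTmG (n = 3) and K8iΔRank (n = 4), and basal parous K8imTmG (n = 4) and K8iΔRank (n = 4).

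The mammary epithelium is a bilayer, with luminal cells that line ducts and alveoli and make milk, and contractile basal cells that rest on the basement membrane. Masp1 encodes a serine protease of the lectin pathway of complement, in which collectins and ficolins that have bound sugars on a surface activate the proteases that ride on them. Alternative ends of the same gene encode MASP-1 and MASP-3, the second of which activates the complement factor D precursor. Ntn4 encodes netrin 4, a secreted protein of basement membranes that binds laminin and loosens laminin networks. Snorc encodes a small transmembrane chondroitin sulfate proteoglycan known mainly from cartilage, where it accompanies chondrocytes that depend on the transcription factor Sox9.

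The libraries were made by priming from the poly(A) tail, so a gene was counted near its 3′ end, and the 3′ ends decide which products a count can hold. On GRCm39 with the GENCODE vM39 annotation, Masp1 (ENSMUSG00000022887.11) lies on chromosome 16 from 23268167 to 23339779 on the minus strand, Ntn4 (ENSMUSG00000020019.6) on chromosome 10 from 93476543 to 93583069 on the plus strand, and Snorc (ENSMUSG00000026258.7) on chromosome 1 from 87397772 to 87403204 on the plus strand. The coding transcripts of Masp1 ended at 4 places more than 100 bases apart, those of Ntn4 at 2 and those of Snorc at 1. The windows below show the poly(A) signal, in capitals, within the last exon of a transcript that ends at each place, on the gene's own strand.
Masp1-201, the canonical transcript, chr16:23268174-23268203: cacattcgttccAATAAAcatctgcattga
Masp1-203, chr16:23287117-23287146: gtctacagtggaAATAAAtctatggataac
Masp1-204, chr16:23298069-23298098: tttaaactcactATTAAAaaccttaaagaa
Masp1-208, chr16:23322529-23322558: atgttgcacaggAATAAAgatgagtcatcg
Ntn4-201, the canonical transcript, chr10:93583034-93583063: tttcatgtatgtAATAAAggcagatggact
Snorc-201, the canonical transcript, chr1:87403153-87403182: cttcttgaagccAATAAAggagccgcacag
The signal was AATAAA in 5 of these windows and the variant ATTAAA in that of Masp1-204, and it lay 16 to 34 bases before the annotated end. The second Ntn4 end belongs to Ntn4-202, a short model of 582 bases with neither hexamer in its last 50 bases. All 4 Masp1 ends fed 1 value per library, so which Masp1 product a change belonged to cannot be told apart. Ntn4 shares its 3′ end with Gm67787, a long non-coding RNA on the opposite strand. The kit marks strand, but whether counting used strand was not given in the sources used here, so reads from these overlapping genes may have been pooled.

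The libraries held 340445 to 3130419 recovered reads, and 1 read was worth 0.381 to 5.43 normalized counts. Basal K8imTmG libraries were the shallowest (340445 to 1365008 reads). Luminal and basal identity was clear, since the summed level of 9 basal markers such as Krt5, Krt14 and Acta2 ran from 62.9 to 324 normalized counts in luminal libraries and from 10574 to 17436 in basal ones. The 3′ tag of Tnfrsf11a, the gene that encodes Rank, did not separate the genotypes: luminal K8iΔRank libraries ranged from 27.0 to 41.1 normalized counts in parous mice and from 11.5 to 23.8 in virgin mice, against 12.8 to 64.9 and 9.57 to 18.6 in K8imTmG. These tags therefore give no check of the deletion. One gene split the libraries across the study's groups: Clec2d was at 65.6 to 199 normalized counts in 14 libraries and at 0.641 to 8.68 in the other 16, and 10 of the 13 mice with both lineages had libraries on opposite sides. All virgin luminal K8iΔRank and virgin basal K8imTmG libraries were Clec2d-high, and all virgin luminal K8imTmG and virgin basal K8iΔRank libraries were Clec2d-low. Depth ran with the split in virgin mice, at 340445 to 1172427 reads in Clec2d-high and 1200781 to 2422876 in Clec2d-low libraries. In virgin mice, genotype within a lineage and lineage within a genotype therefore cannot be told apart from this split or from depth. In bulk RNA, a change in the share of cells that express a gene and a change in RNA per cell cannot be told apart either.

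In parous luminal cells, the contrast that chose the genes, each K8iΔRank library lay above each K8imTmG library for all 3. Masp1 stood at 148, 245, 192 and 265 normalized counts in the 4 K8iΔRank mice (mean 212 ± 52.8, SD). In the 5 K8imTmG mice Masp1 was at 5.04, 5.199, 4.85, 12.8 and 31.2 (11.8 ± 11.3). The 4 K8iΔRank luminal libraries were also above the other 26 libraries of the series, whose highest value was 119 in a virgin basal K8iΔRank library. Ntn4 was at 54.8, 66.8, 66.3 and 67.0 in K8iΔRank (63.7 ± 5.98), which left little spread between mice. In K8imTmG Ntn4 was at 6.72, 9.198, 3.09, 12.8 and 12.98 (8.95 ± 4.19). The SD of log2 Ntn4 in parous luminal cells was 0.73 in K8imTmG and 0.14 in K8iΔRank. These rest on 4 to 30 and on 119 to 144 reads per library, so counting noise differs between them. They also come from the libraries that chose the gene, so they do not compare the spread between mice. Snorc was at 183, 230, 193 and 330 in K8iΔRank (234 ± 66.9). In K8imTmG Snorc was at 60.5, 21.6, 15.9, 41.5 and 25.1 (32.9 ± 18.1). The mean of log2(normalized count + 1) was higher in K8iΔRank by 4.39 for Masp1, 2.83 for Ntn4 and 2.91 for Snorc. Among the Clec2d-low libraries alone (4 K8iΔRank, 3 K8imTmG) these differences were 4.31, 2.95 and 3.41. All genes were fitted with limma on log2(normalized count + 1), and a gene was called at a Benjamini-Hochberg adjusted p below 0.05 over all genes tested. The 3 genes were among the 10 of 10090 (0.0991%) called in this contrast, which is how they were picked and supports nothing further.

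**Figure D1:**
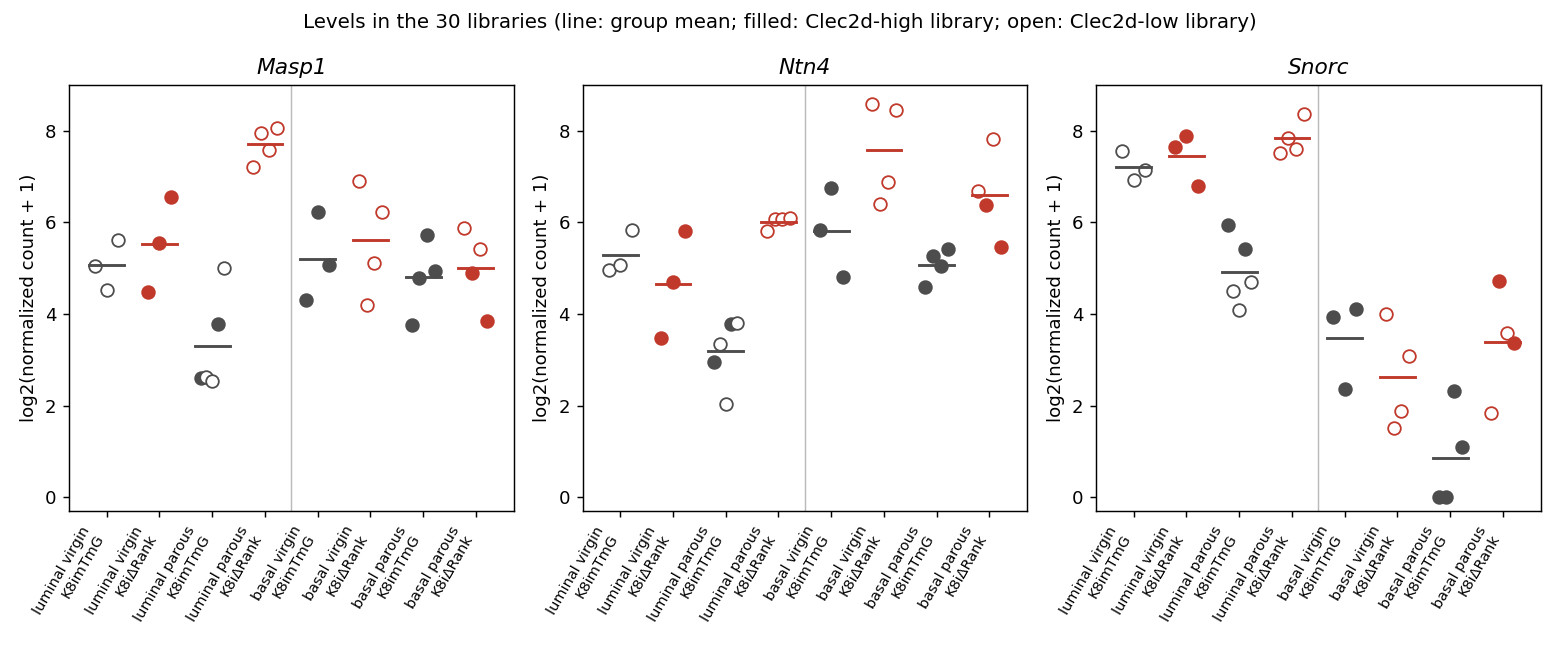
Levels of Masp1, Ntn4 and Snorc, as log2(normalized count + 1), in each of the 30 libraries by lineage, stage and genotype. Points are libraries (filled, Clec2d-high; open, Clec2d-low), lines are group means, grey is K8imTmG and red is K8iΔRank. In luminal cells the parous K8imTmG group is the low one for Ntn4 and Snorc and the parous K8iΔRank group is the high one for Masp1, and in basal cells Ntn4 lies higher in K8iΔRank at both stages.

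Set against virgin luminal cells, the 3 genes reached this difference in unlike ways. These values hold the libraries that chose the genes and are given as a description. Snorc was at 186, 120 and 141 normalized counts in virgin K8imTmG luminal cells, so parous K8imTmG cells lay below virgin ones with no overlap (log2 difference −2.28). Parous K8iΔRank cells overlapped the virgin control range for Snorc (log2 difference 0.63). Ntn4 followed the same order, at 30.1, 32.5 and 55.9 in virgin K8imTmG luminal cells. The log2 difference for Ntn4 was −2.10 from virgin to parous in K8imTmG, without overlap, and 0.73 from virgin K8imTmG to parous K8iΔRank, with overlap. Masp1 differed from both. It was at 32.0, 22.02 and 47.8 in virgin K8imTmG luminal cells, and the parous K8imTmG libraries were lower on average (−1.75), with 1 of 5 inside the virgin range. Parous K8iΔRank luminal cells lay above all virgin control cells for Masp1 (2.64), with no overlap. For Ntn4, 3 of the 4 parous K8iΔRank libraries lay above the whole virgin control range. Against virgin K8iΔRank luminal cells, parous K8iΔRank cells differed by 2.17 for Masp1, without overlap, and by 1.35 for Ntn4 and 0.39 for Snorc, with overlap.

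Sums of cell type marker genes in the luminal libraries also moved between these groups. The sum of luminal progenitor and alveolar markers such as Elf5, Kit and Csn3 was 5289 to 8424 normalized counts in parous K8imTmG and 2367 to 4471 in parous K8iΔRank, with no overlap, and 682 to 1234 in virgin K8imTmG. The casein genes Csn1s1, Csn3 and Csn2 had the largest means in parous K8imTmG (2614, 2072 and 879). Members of this list did not all move together. From parous K8imTmG to parous K8iΔRank, mean Aldh1a3 went up from 287 to 532 and mean Lalba from 30.8 to 77.6. The sum of hormone-sensing markers such as Esr1, Pgr and Prlr ran from 725 to 10270 in parous K8imTmG. It ran from 3302 to 7619 in parous K8iΔRank and from 10728 to 12834 in virgin K8imTmG. Prlr had the largest mean of this list in both parous groups (3169 in K8iΔRank, 2016 in K8imTmG). Mean Esr1, Pgr, Areg, Tnfsf11 and Prom1 were also higher in parous K8iΔRank. Mean Foxa1, Cited1 and Ly6a were lower there (184, 390 and 355, against 384, 465 and 591 in parous K8imTmG). Across the 15 luminal libraries the progenitor and alveolar sum correlated with Ntn4 at r = −0.58, with Snorc at r = −0.58 and with Masp1 at r = −0.31 (Pearson, log2 scale, libraries of all 4 luminal groups). The hormone-sensing sum correlated with them at r = 0.52, 0.63 and 0.32, and the sum of 6 general luminal markers at 0.58, 0.63 and 0.37. Endothelial markers (Pecam1, Cdh5, Kdr and Eng) summed to 16.7 to 65.3 in parous K8iΔRank and 5.29 to 19.2 in parous K8imTmG, and over the 15 luminal libraries this sum correlated at r = 0.70 with Ntn4, 0.74 with Snorc and 0.53 with Masp1. Eng had the largest mean of these markers in each luminal group, from 4.82 in parous K8imTmG to 67.5 in virgin K8imTmG. Mean Cdh5 stayed between 1.06 and 3.20 in these groups. The part of these markers in the levels of Masp1, Ntn4 and Snorc was not tested.

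In virgin luminal cells, which played no part in the choice, none of the 3 genes differed between the genotypes beyond the spread between mice. Masp1 was at 21.5, 46.1 and 92.5 in K8iΔRank, and these values overlapped the control range given above. The log2 difference for Masp1 was 0.47 (SE 0.49, limma adjusted p = 0.605, 3 against 3 libraries), with a 95% confidence interval of −0.63 to 1.57. Ntn4 was at 10.1, 24.997 and 55.5 in K8iΔRank, so its mean was the lower one (log2 difference −0.62, SE 0.53, limma adjusted p = 0.522, interval −1.81 to 0.56). The SD of log2 Ntn4 was 1.17 in these mice, against 0.48 in virgin K8imTmG and 0.14 in parous K8iΔRank luminal cells. These SDs rest on 8 to 42, 47 to 76 and 119 to 144 Ntn4 reads per library, so counting noise differs between them. Snorc was at 199, 237 and 110 in K8iΔRank. Its log2 difference was 0.24 (SE 0.32, limma adjusted p = 0.700) with the narrowest interval of the 3, −0.48 to 0.96. All 3 intervals end below the difference seen in parous luminal cells, but that difference chose the genes and is no fair measure to set them against. The difference between the stages was not tested, since it would hold the libraries that chose the genes. Of all genes tested in virgin luminal cells, 99 of 10066 (0.984%) were called. In both virgin and parous K8iΔRank luminal cells Snorc was thus high, and the low group was parous K8imTmG.

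In basal cells, which kept Rank, Ntn4 was higher on average in K8iΔRank mice at both stages, though neither stage alone passed the threshold. In parous mice Ntn4 was at 102, 82.1, 226 and 42.9 normalized counts in K8iΔRank (113 ± 79.2) and at 23.0, 37.4, 31.9 and 42.1 in K8imTmG (33.6 ± 8.20). The ranges did not overlap, but the lowest K8iΔRank library (42.9) stood next to the highest control (42.1). The log2 difference was 1.51 (SE 0.41, limma adjusted p = 0.0772, interval 0.63 to 2.39), with 96 of 10592 genes (0.906%) called. In virgin mice Ntn4 was at 384, 83.1, 117 and 350 in K8iΔRank (234 ± 155) and at 56.0, 107 and 27.2 in K8imTmG (63.6 ± 40.7). The ranges overlapped by 1 library on each side. The log2 difference was 1.78 (SE 0.60, limma adjusted p = 0.0870, interval 0.44 to 3.12), with 954 of 10616 genes (8.99%) called. DESeq2 on the recovered reads called Ntn4 in both, at a log2 difference of 1.72 in parous cells (DESeq2 adjusted p = 0.00982, 6.09% of genes called) and 1.84 in virgin cells (DESeq2 adjusted p = 0.0229, 10.9% called). Over all alternatives run, the adjusted p of Ntn4 ranged from 0.00597 to 0.539 in parous and from 0.00709 to 0.243 in virgin basal cells. The 0.00709 came from a limma fit of both basal stages together, described next, and not from virgin cells alone.

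A fit of both basal stages together with stage as a term, added after these values had been seen, gave an Ntn4 log2 difference of 1.63 (SE 0.38, limma adjusted p = 0.00709), with 22.2% of genes called. The Clec2d split runs along the same direction: all basal K8imTmG libraries were Clec2d-high, all virgin basal K8iΔRank libraries were Clec2d-low, and the parous basal K8iΔRank group held 2 of each. The Clec2d-low parous K8iΔRank libraries had Ntn4 at 102 and 226 and the Clec2d-high ones at 82.1 and 42.9. Among Clec2d-high parous libraries alone (2 against 4) the log2 difference was 0.84 (limma adjusted p = 0.539), so the difference narrowed within that side. Endothelial markers summed to 215 to 755 in virgin basal K8iΔRank and 152 to 317 in virgin basal K8imTmG. Among the virgin K8iΔRank mice, mouse 820 had the highest sum (755) with Ntn4 at 384, and mouse 825 the lowest sum (215) with Ntn4 at 350. In parous basal cells the endothelial markers summed to 83.3 to 129 in K8iΔRank and 46.0 to 110 in K8imTmG. Over the 15 basal libraries Ntn4 and the endothelial sum correlated at r = 0.60. The part of these markers was not tested.

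Masp1 did not separate the genotypes in basal cells. In parous mice Masp1 was at 57.9, 28.7, 41.8 and 13.4 in K8iΔRank and at 12.6, 26.7, 51.8 and 29.6 in K8imTmG, and the ranges overlapped nearly whole. The log2 difference was 0.21 (SE 0.47, limma adjusted p = 0.818, interval −0.80 to 1.22). In virgin mice Masp1 was at 119, 17.4, 33.9 and 74.1 in K8iΔRank and at 18.7, 74.4 and 32.6 in K8imTmG. The log2 difference was 0.41 (SE 0.65, limma adjusted p = 0.706, interval −1.03 to 1.86).

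Snorc was close to the limit of detection in basal cells. In parous K8imTmG it was at 0, 0, 3.98 and 1.14 normalized counts, from 0 or 1 read per library, and 3 reads would have been worth 3.41 to 11.9 there. In parous K8iΔRank it was at 2.57, 25.5, 11.004 and 9.31, from 6 to 32 reads. The log2 difference was 2.53 (SE 0.89, limma adjusted p = 0.130). Snorc passed the filter on low values here only through the K8iΔRank libraries at 25.5 and 11.004, so this test decides nothing. Pooled over libraries, Snorc had 81 of 10312247 reads in K8iΔRank and 2 of 3257012 in K8imTmG. That is a ratio of 12.8 with an exact 95% interval of 3.43 to 107, which covers counting error only. Pooling treats the mice of a group as 1 sample, so this interval says nothing of the spread between them, and the deepest of the 4 K8iΔRank libraries held the lowest value. The sum of 6 luminal markers such as Krt8, Krt18 and Epcam was 1266 to 1379 in parous basal K8iΔRank and 725 to 1089 in K8imTmG, without overlap, against 4308 or more in every luminal library. Its part in the Snorc values was not tested. In virgin basal cells Snorc was at 15.0, 1.86, 2.71 and 7.52 in K8iΔRank and at 14.4, 4.13 and 16.3 in K8imTmG, from 1 to 13 reads per library. The log2 difference had the other sign there (−0.85, SE 0.78, limma adjusted p = 0.4998).

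**Figure D2:**
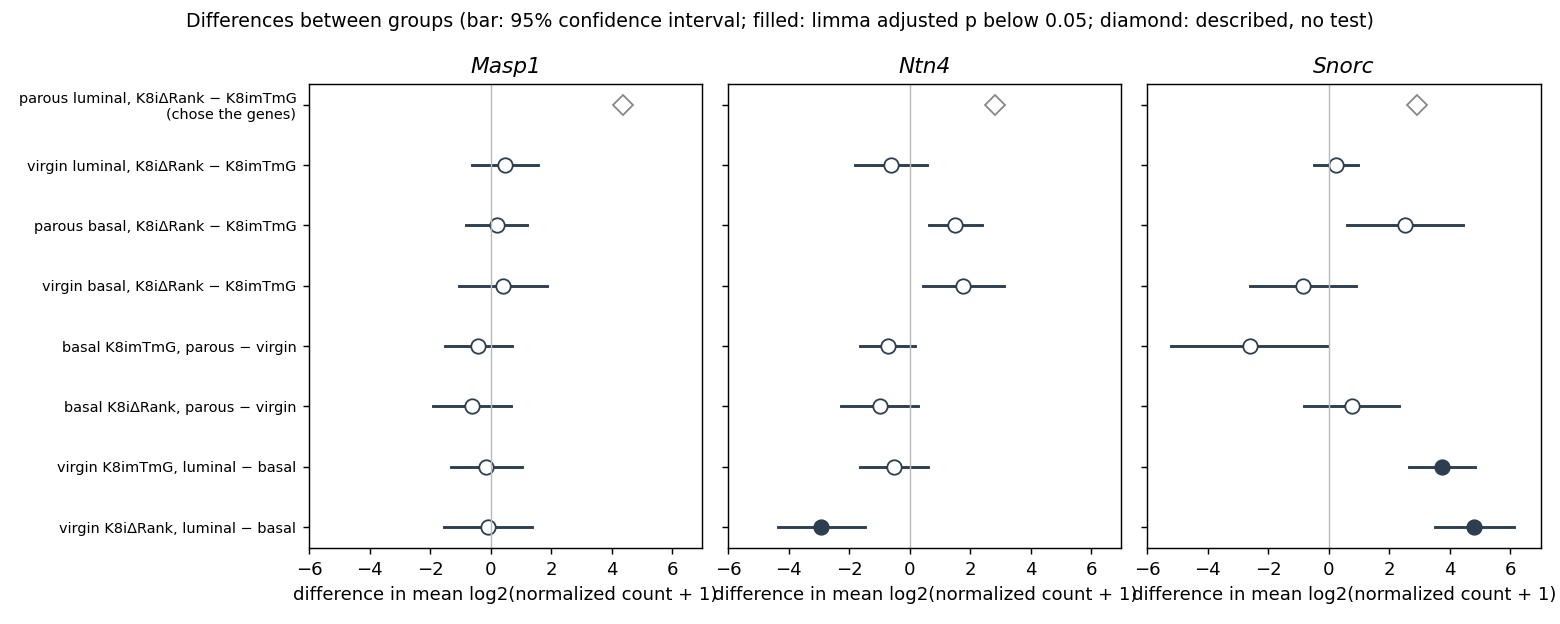
Differences in mean log2(normalized count + 1) between groups for Masp1, Ntn4 and Snorc, with 95% confidence intervals from limma. Filled points passed an adjusted p below 0.05, and diamonds mark the parous luminal contrast that chose the genes, which has no test. The genotype intervals of virgin luminal cells include 0 for all 3 genes, those of basal Ntn4 lie above 0 at both stages without passing adjustment, and the luminal level of virgin Snorc is above the basal one in both genotypes.

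In basal cells no member passed the test for parity or for a difference of the genotype effect between stages. From virgin to parous K8imTmG the log2 differences were −0.40 for Masp1, −0.72 for Ntn4 and −2.62 for Snorc, with limma adjusted p = 0.835, 0.600 and 0.542. From virgin to parous K8iΔRank they were −0.60, −0.99 and 0.75 (limma adjusted p = 0.668, 0.527 and 0.659). In the K8imTmG comparison Snorc passed the filter on low values only through the virgin libraries at 14.4 and 16.3, so its test there decides nothing. Limma called 0 of 10538 genes in the first of these comparisons, with 969 at an unadjusted p below 0.05, and DESeq2 and edgeR called 40 and 8. It called 0 of 10525 in the second, with 1036 at an unadjusted p below 0.05, and DESeq2 and edgeR called 89 and 0. The difference of the genotype effect between the stages was −0.20 for Masp1 and −0.27 for Ntn4 (limma adjusted p = 0.948 and 0.922). For Snorc it was 3.37 (SE 1.16, limma adjusted p = 0.395). No gene was called by limma for this term among 10607 tested, 1082 had an unadjusted p below 0.05, and DESeq2 and edgeR called 10 and 0.

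Lineage separated Snorc most clearly. In virgin K8imTmG mice the luminal level of Snorc exceeded the basal one by 3.73 on the log2 scale (SE 0.48, limma adjusted p = 0.000510), in a comparison that called 3906 of 10796 genes (36.2%). In virgin K8iΔRank mice it exceeded it by 4.82 (SE 0.58, limma adjusted p = 0.000168), with 3928 of 10927 genes (35.9%) called. Each mouse with both lineages had more Snorc in its luminal library, in 13 of 13 mice, by 3.09 to 6.13 on the log2 scale. The luminal level of Snorc was the higher one in all 4 combinations of stage and genotype, including parous K8imTmG, where its luminal level was lowest. Among Clec2d-low parous K8iΔRank libraries alone (4 luminal, 2 basal) the Snorc difference was 5.13, given without a test.

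Ntn4 leaned to the basal side. In virgin K8iΔRank mice the luminal level was below the basal one by 2.92 (log2 difference −2.92, SE 0.65, limma adjusted p = 0.00602). In virgin K8imTmG mice the difference was −0.52 (SE 0.50, limma adjusted p = 0.444). Within mice, Ntn4 was higher in the basal library in 12 of 13, and the exception was a parous K8iΔRank mouse. The genotype effect on Ntn4 in luminal cells minus that in basal cells was −2.40 in virgin mice (SE 0.92, limma adjusted p = 0.0726), with 2397 of 10886 genes (22%) called. With mouse number as a replicate block, which pairs the luminal and basal library of a mouse, it was −1.68 (limma adjusted p = 0.0483), so this value passed the threshold with the block and not without it. It also passed with all 30 libraries in 1 fit and without any 1 of 3 single libraries, and over all alternatives the adjusted p of this term ranged from 0.0315 to 0.182. This term, too, cannot be told apart from the Clec2d split.

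Masp1 did not pass the lineage test in virgin cells. The luminal minus basal difference was −0.14 in K8imTmG (SE 0.52, limma adjusted p = 0.854) and −0.08 in K8iΔRank (SE 0.65, limma adjusted p = 0.931), and the intervals reached from −1.32 to 1.04 and from −1.54 to 1.37. Within mice, luminal Masp1 was the higher value in 3 of 3 virgin K8iΔRank mice (by 0.29 to 0.44) and in 1 of 2 virgin K8imTmG mice. In parous mice, whose luminal libraries chose the gene, it was higher in 4 of 4 K8iΔRank mice (by 1.34 to 4.20) and in 1 of 4 K8imTmG mice.

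The order of the 8 groups by mean normalized count placed the parous luminal K8iΔRank group first for Masp1 and Snorc and in place 3 for Ntn4, and parous luminal K8imTmG last for Masp1 and Ntn4. For Masp1 the 6 groups between these ends had means from 30.2 to 61.1, and each overlapped its neighbour in the order by more than the gap between them. For Ntn4 the order began with virgin and parous basal K8iΔRank (234 and 113) and ended with luminal parous K8imTmG (8.95). The 7 groups above this last one overlapped their neighbours, with gaps smaller than the larger SD of each pair. For Snorc the order began with parous K8iΔRank and both virgin groups of luminal cells (149 to 234), followed by parous K8imTmG luminal cells (32.9), 3 basal groups (6.77 to 12.1) and, below these by more than the larger SD, parous K8imTmG basal cells (1.28). Among the first 3 no neighbours differed by more than their spread, and the lowest parous K8imTmG luminal library (15.9) lay inside the range of parous K8iΔRank basal cells.

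Masp1 and Ntn4 varied together from mouse to mouse, and Snorc did not follow them. Over the 15 luminal libraries the Pearson r of log2 values was 0.91 between Masp1 and Ntn4, 0.77 between Masp1 and Snorc and 0.78 between Ntn4 and Snorc, which includes the group difference that chose all 3. After each group's mean was subtracted, r stayed at 0.81 for Masp1 and Ntn4 and was −0.06 and −0.03 for the pairs with Snorc. In the 15 basal libraries, which chose nothing, r between Masp1 and Ntn4 was 0.69, and 0.77 after the group means were subtracted. For Snorc the basal values after subtraction were 0.27 with Masp1 and 0.19 with Ntn4. The virgin K8iΔRank mice show the pattern in both lineages: mouse 825 had the most luminal Masp1 (92.5) and Ntn4 (55.5) of its group, mouse 821 the least (21.5 and 10.1), and in basal cells mouse 821 again had the least of both (17.4 and 83.1). These correlations are descriptions over libraries that share groups, mice and, in part, a side of the Clec2d split.

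**Figure D3:**
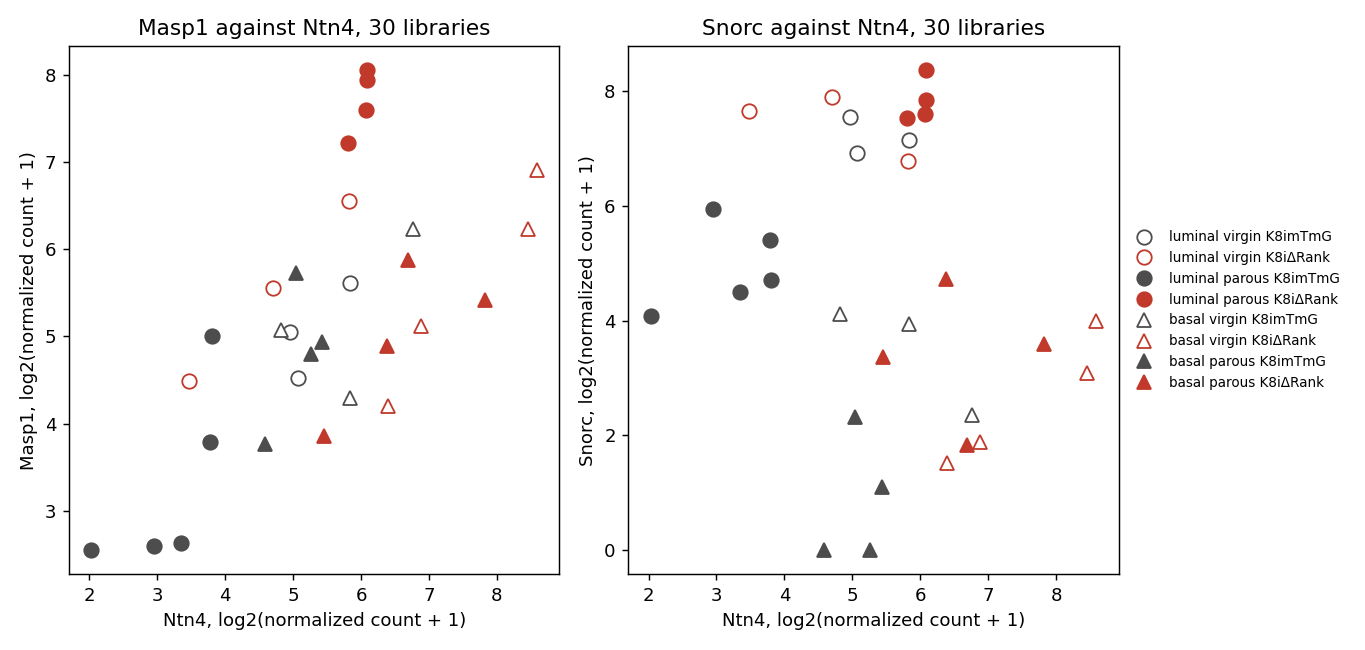
Masp1 (left) and Snorc (right) against Ntn4 in the 30 libraries, all as log2(normalized count + 1). Circles are luminal and triangles basal libraries, open symbols virgin and filled symbols parous, grey K8imTmG and red K8iΔRank. Masp1 rises with Ntn4 along separate bands for luminal and basal libraries, whereas Snorc separates the lineages and shows no such band within groups.

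The genes with the most similar pattern over all 30 libraries differed for the 3 members. For Masp1 they were Gpc6, a glypican (r = 0.73), Trib1, a pseudokinase (0.71), and Klhl3, an adaptor of a cullin ubiquitin ligase (0.70). For Ntn4 they were Fndc3b, a fibronectin type III domain protein (0.89), Pbxip1, a partner of PBX homeobox proteins (0.89), and Prkar1b, a regulatory subunit of protein kinase A (0.88). For Snorc they were Sri, the calcium-binding protein sorcin (0.92), the kinase gene Sbk2 (0.91) and Wfdc2, a secreted WAP-domain protein (0.91). The neighbours of Snorc largely follow lineage. Those of Ntn4 were highest in basal K8iΔRank cells, but did not follow lineage throughout. Mean log2 Fndc3b, Pbxip1 and Prkar1b were 8.61, 8.70 and 4.24 in virgin K8imTmG luminal cells. In parous K8imTmG basal cells they were 8.51, 8.40 and 4.06. Over the 15 luminal libraries alone, none of these 9 genes stayed in the first 3: Masp1 was then closest to Fgf2 (0.92) and Ntn4 (0.91), Ntn4 to Cavin2 (0.94) and Masp1 (0.91), and Snorc to Tesc (0.93) and Pon3 (0.89). These luminal libraries hold the contrast by which Masp1 and Ntn4 were both picked, so their likeness there follows in part from the choice. Gene patterns over a shared set of groups are not independent, and likeness here is a description.

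**Figure D4:**
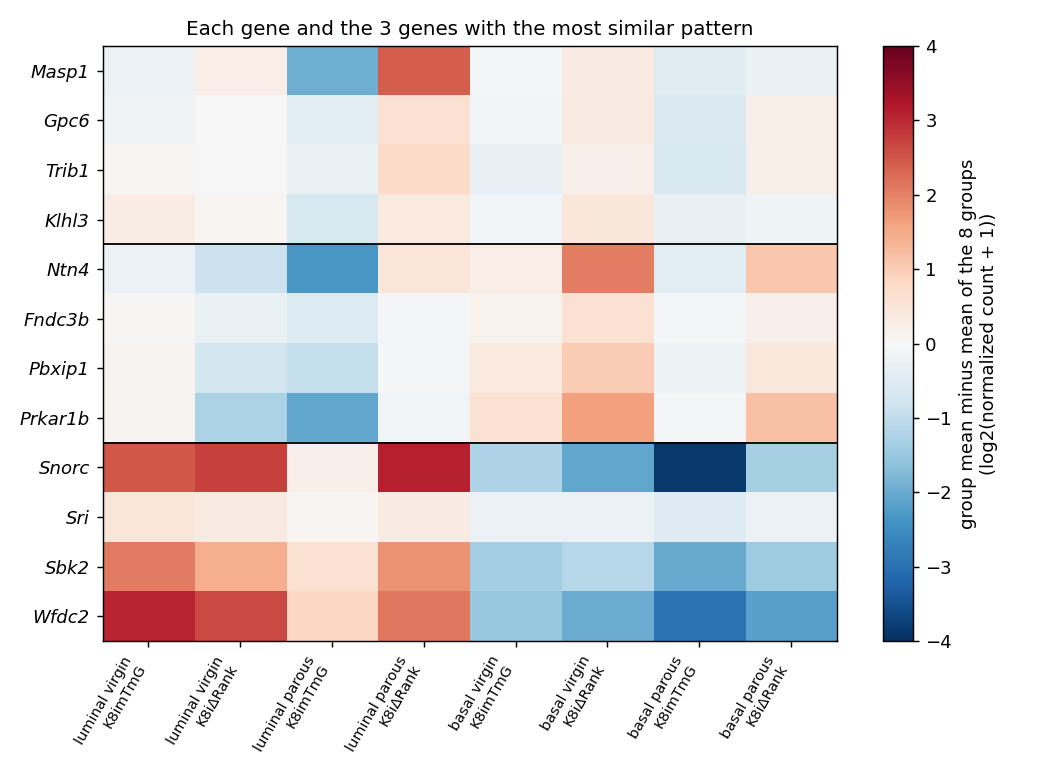
Mean log2(normalized count + 1) of each group minus the mean of the 8 groups, for Masp1, Ntn4 and Snorc and the 3 genes most like each over 30 libraries. Red is above and blue below the mean of the groups. Parous luminal K8imTmG is low and parous luminal K8iΔRank high for Masp1, basal K8iΔRank is high for Ntn4 and its neighbours, and Snorc and its neighbours are high in luminal groups.

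Other genes of the same pathways were followed with lists that leave out the 3 members. Of 47 listed complement and lectin pathway genes other than Masp1, 12 were in the table, and the netrin and laminin list (without Ntn4) had 20 of 31 and the chondroitin sulfate proteoglycan and cartilage list (without Snorc) 33 of 54. In parous luminal cells 0 of the 9, 18 and 25 tested members of these lists were called by limma in K8iΔRank against K8imTmG. Of all genes 0.0991% were called there, so 0 calls says little about these lists. Their median log2 differences were 0.02, 0.27 and 0.13, against 0.04 over all genes tested. In virgin basal cells 4 of 63 tested members of the lists were called, against 8.99% of all genes. The central complement component C3 rose by 1.10 in K8iΔRank (limma adjusted p = 0.0221) and Chst15, a chondroitin sulfate sulfotransferase, by 1.29 (limma adjusted p = 0.0228), while the testican gene Spock2 fell by 1.28 (limma adjusted p = 0.0272). In luminal cells mean C3 was the lower one in K8iΔRank, at 28.6 against 93.4 in virgin and 97.1 against 271 in parous mice. Limma called neither luminal difference. In parous basal cells none of the 60 tested members was called, against 0.906% of all genes. Lineage moved many of them, as it did 36.2% of all genes: in virgin K8imTmG mice, 12 of the 20 netrin and laminin genes were lower in luminal than in basal cells and none was higher, and 18 of 33 proteoglycan and cartilage genes were lower and 3 higher, against 18.9% lower and 17.2% higher of all genes. Among these, the laminin chain genes Lama3 and Lamb3 were lower in luminal cells by 4.59 and 4.23 (log2 differences −4.59 and −4.23, limma adjusted p = 3.66e-05 and 3.77e-05), and the proteoglycan biglycan (Bgn) by 6.14 (log2 difference −6.14, limma adjusted p = 5.16e-06). Ntn4 did not pass the threshold in this virgin K8imTmG comparison and was called on the basal side only in virgin K8iΔRank mice. Snorc stood on the luminal side, unlike most called members of its own list.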

How the data were processed

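Genome-wide RNA was measured by QuantSeq 3′ sequencing with molecular identifiers in sorted cells. Per the labels, the submitters' processing notes name UMI-tools, Bowtie2, SAMtools, bedtools, FastQC 0.11.9, DESeq2 and GRCm39. The deposited signal values are normalized counts, which the authors made by dividing counts by DESeq2 size factors. Each value was a whole multiple of its library's smallest step (100% whole within 0.01 reads), which recovered reads and depth. Groups came from the labels. The main test was limma 3.58.1 with a trended prior on log2(normalized count + 1), for the 10066 to 10927 genes that exceeded 10 normalized counts in 25% or more of a comparison's libraries, with Benjamini-Hochberg adjustment. Alternatives were DESeq2 1.42.0 and edgeR 4.0.16 on recovered reads, other pseudocounts, filters and scalings, and leaving out each library. Simulated counts with 200 genes changed by 2 on the log2 scale gave 143 recovered in virgin luminal and 169 in parous basal comparisons. In virgin basal cells 124 were recovered. The fewest were recovered for genotype by lineage (54) and genotype by stage (76), so a gene not called for these terms may still differ. The 43 pairs of replicates all differed by more than sampling noise (lowest chi-square per degree of freedom 2.67). Luminal and basal libraries with 1 mouse number came from the same mouse and so are paired, although the deviations of the paired libraries from their group means correlated only between −0.24 and 0.34. The members and gene lists were chosen with earlier results of these data known. The genes named are the 3 members, the 3 genes most correlated with each over 30 libraries, up to 3 called genes per list and comparison, and marker genes. One gene of the lists is not reported here. Promoter and protein sequences were not used here. P-values measure the spread between mice only.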

Additional observations from a re-analysis of the deposited data

Results flagged for a closer look

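Of 15 sets of libraries tested for an extreme value (each member in each group of 4 or 5 libraries), 1 held one. In parous luminal K8iΔRank cells the Ntn4 value of mouse 787 was 54.8 normalized counts, while the other 3 libraries lay at 66.3, 66.8 and 67.0. The gap to the next library was 0.942 of the whole range, above Dixon's 95% critical value for 4 libraries. Chance gives such a value in about 1 of 20 groups. Mouse 787 also had the lowest Masp1 (148) and the lowest Snorc (183) of its group. Without this library the Ntn4 log2 difference between the genotypes in parous luminal cells was 2.90, against 2.83 with it.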

How the results depend on the processing

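Of 463 recomputed values of the 27 tested differences of Masp1, Ntn4 and Snorc, 411 kept their direction and their side of the threshold, none was lost, 16 passed only under the alternative and 36 changed sign, none of these with an adjusted p below 0.05. The 3 differences called in the report (virgin Snorc by lineage in both genotypes, virgin K8iΔRank Ntn4 by lineage) were called under every alternative run, and the parous luminal differences moved by less than 1 SD. Calls were gained for Ntn4 by genotype with DESeq2 (1.84 in virgin and 1.72 in parous basal cells), with array quality weights (2.04, parous basal), with all 30 libraries in 1 fit (1.78, virgin basal) and with the stage term (1.63). They were gained for Ntn4 in the genotype by lineage term with all 30 libraries (−2.40) and with the replicate block (−1.68, all other calls being as without it). Snorc passed in parous basal cells with array weights (2.36) and all 30 libraries (2.53), and in basal K8imTmG parity with all 30 libraries (−2.62). With array weights it entered that parous basal test only through K8iΔRank libraries, as in the main test. Signs turned with array weights for Masp1 in virgin basal cells (−0.12), basal K8iΔRank parity (0.33), virgin K8iΔRank lineage (0.34) and genotype by stage (0.84), and for Ntn4 in basal K8iΔRank parity (0.14) and genotype by stage (1.02). They turned for Masp1 within 1 Clec2d side in parous basal cells (−0.43) and basal K8iΔRank parity (0.036). They also turned for Masp1 by lineage with the replicate block (0.061 in K8imTmG, 0.35 in K8iΔRank). The fit with the stage term gives a joint genotype effect for both basal stages, entered under each stage. For Snorc this joint effect was 0.97. It was counted as a sign change beside the virgin basal value, although it does not re-estimate that value. The causes were not tested. Snorc could not be fitted among Clec2d-high parous basal libraries, where it fell under the filter on low values.

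Leaving out 1 library moved Masp1 by genotype from −0.036 to 0.99 in virgin luminal, −0.039 to 0.93 in virgin basal and −0.14 to 0.59 in parous basal cells. It moved Masp1 from −0.85 to 0.12 in basal K8imTmG parity, −0.59 to 0.38 and −0.59 to 0.44 by lineage in virgin K8imTmG and K8iΔRank, −0.46 to 0.58 in genotype by lineage and −0.72 to 0.25 in genotype by stage. Ntn4 moved from 1.28 to 2.26 in virgin basal cells (called without K8iΔRank mouse 821, adjusted p = 0.0361), 1.09 to 1.88 in parous basal cells (called without K8iΔRank mouse 794, adjusted p = 0.0452), −2.98 to −1.80 in genotype by lineage (called without luminal K8iΔRank mouse 825, basal K8iΔRank mouse 821 or basal K8imTmG mouse 538) and −0.75 to 0.22 in genotype by stage. The number of genes called was less stable than these values. Beside 99 in virgin luminal cells it ran from 0 to 2514, beside 954 in virgin basal from 281 to 2355, beside 96 in parous basal from 0 to 2572 and beside 10 in parous luminal from 0 to 1147. The 2355 came from the fit of both basal stages with a stage term, and the next highest in virgin basal cells was 2161, with all 30 libraries in 1 fit. Beside 0 it reached 70 and 214 for parity in basal K8imTmG and K8iΔRank and 10 for genotype by stage, and for genotype by lineage it was 984 with the replicate block against 2397. The order of groups by reads scaled to library totals kept 5, 6 and 8 of the 8 places for Masp1, Ntn4 and Snorc. Depth limits Snorc most, since basal libraries held 0 to 32 of its reads.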
